A study of Mus musculus with 38 samples.

Results

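The transcripts described here are those of C1q and of the early classical complement pathway in macrophages of the mouse lung. The set holds 9 named genes, C1qa, C1qb, C1qc, C1ra, C1s1, C2, C4b, C3 and Serping1, chosen by name out of 43346 gene identifiers in the deposited count table, and all 9 were found once. Macrophages were sorted from naive C57Bl/6 mice aged 8 to 10 weeks, with no treatment or engineered allele named for any group. IM1, IM2 and IM3 are interstitial macrophages, taken after an enrichment for MerTK and gated as CD64+ CD11b+ cells without Siglec F, CD24, CD43, Ly6G or lymphocyte markers. CD206 (the mannose receptor) and surface MHC class II then divided them: IM1 was MHC class II low and CD206 high, IM2 was high for both, and IM3 was MHC class II high and CD206 low. Alveolar macrophages (AM) were gated in a separate sort as CD11c+ Siglec F+ cells without CD11b, CD103, Gr1 or lymphocyte markers, so the interstitial cells and AM also differ in enrichment and gate. Each population had 3 libraries, A, B and C, which makes 12 in all. The labels do not say whether the letters stand for separate animals or pools, so p-values measure only the spread between these libraries.

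C1q is the recognition molecule of the classical pathway and is assembled from A, B and C chains, encoded by C1qa, C1qb and C1qc. When it binds antibody or the surface of a dying cell, the attached protease C1r activates the protease C1s, which cleaves C4 and C2. The fragments form a convertase that cleaves C3, and C1 inhibitor, encoded by Serping1, inactivates C1r and C1s. Most plasma complement proteins are made in the liver, whereas C1q is made mainly by macrophages and dendritic cells.

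The libraries held 11818981 to 15758326 reads assigned to genes, and levels are given as CPM, counts scaled to the library size after TMM normalisation, unless raw counts are named. IM1 replicate A was the shallowest and stood apart from its group: the chi-square per degree of freedom over genes was 81.3 and 63.7 between it and IM1 replicates B and C, against 19.4 between those replicates. All 7 macrophage markers looked at (Cd68, Adgre1, Fcgr1, Mertk, Csf1r, Lyz2 and Cd14) had counts in every population, and 4 liver markers summed to at most 0.0846 CPM (without TMM scaling) in any library. The 8 alveolar macrophage markers summed to 69.9 to 281 CPM in the 9 interstitial libraries and to 4.67e+04 to 5.45e+04 CPM in AM. Because these are bulk libraries, fewer cells with a transcript and less of it per cell cannot be told apart.

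All 3 interstitial populations held the C1q chains among their most abundant transcripts, and AM held almost none. C4b and C2 were high in IM1 and IM2 and low in IM3, C1ra and C3 were highest or near their highest in AM, and C1s1 and Serping1 were present in the interstitial libraries at like levels and almost unread in AM. All 9 members passed the low-count filter (14095 genes did). C1qa, C1qb, C1qc, C1s1 and Serping1 passed it only through the interstitial libraries, so they could not be called lower there than in AM. Against AM, 9 of 9 members were called in the mean of the interstitial populations, 7 higher and 2 lower, where 64.6% of all genes tested were called (35.9% higher and 28.7% lower). In IM1 7 were higher and 2 lower than in AM (58.8% of all genes were called), in IM2 7 were higher and 1 lower (60.5%), and in IM3 6 were higher and 2 lower (57.4%). With so many genes called in each comparison with AM, these counts alone set the members little apart. The comparisons with AM share the same 3 AM libraries.

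Among the interstitial populations, no member was called between IM1 and IM2 in the fit with population as the only term, where 1.71% of all genes (241) were called. With the replicate letter as a block, C3 was called lower in IM1 than in IM2 (-0.83, SE 0.19, adjusted p = 0.0313), among 392 genes called. Without IM1 replicate B, C3 and C1qc (0.61, adjusted p = 0.0422) were called among 1904 genes, and the same 2 members were called without the low-count filter. Without IM1 replicate C, IM2 replicate B or IM2 replicate C, 110 to 123 genes and no member were called. There were 5 members higher in IM1 than in IM3 and none lower (24.4% of all genes were called, 12.7% higher and 11.7% lower), and 4 higher in IM2 than in IM3 and none lower (11.4% called, 6.49% higher and 4.94% lower). The 5 members higher in IM1 than in IM3 became 3 without IM3 replicate A or IM3 replicate B, when C1qc and C3 were lost. The median log2 fold change of the 9 members was 0.01 for IM1 over IM2, 0.67 for IM1 over IM3 and 0.25 for IM2 over IM3, beside medians of 0.00, 0.02 and 0.00 over all genes tested. Between IM1 and IM2, 1 of the 9 members, C3, had an unadjusted p under 0.05 by edgeR (p = 0.0116), and DESeq2 called 0 members.

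**Figure D1:**
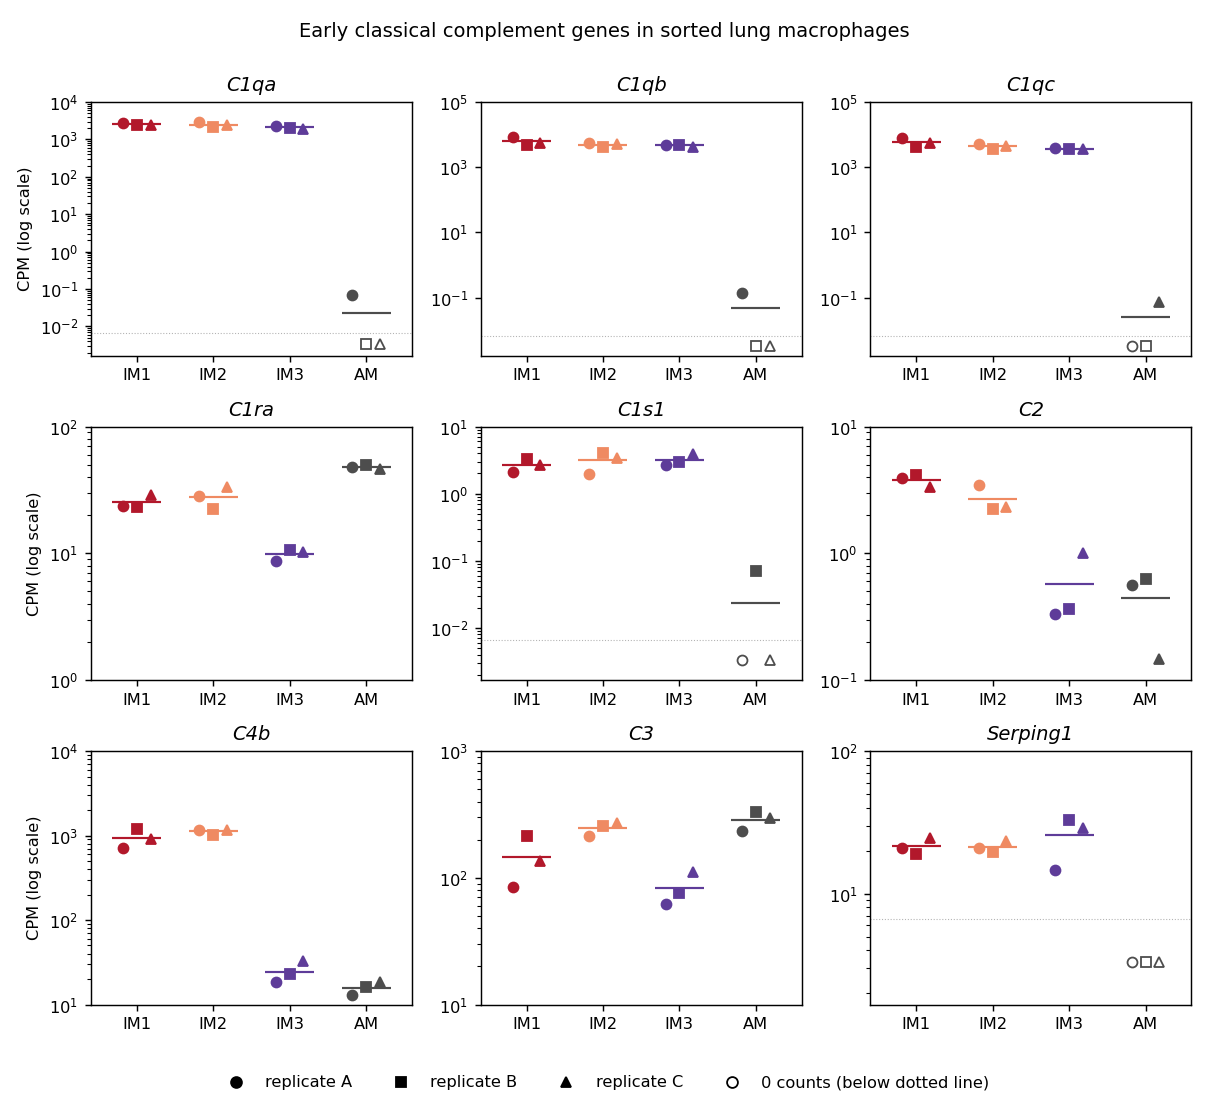
Level of each of the 9 genes in CPM (vertical axis, log scale, a different range in each panel) in the 3 libraries of IM1, IM2, IM3 and AM (horizontal axis). Filled symbols are single libraries, open symbols are libraries with 0 counts, drawn under the dotted line at no scale, and bars are group means. C1qa, C1qb and C1qc lie between 1934 and 8619 CPM in all 9 interstitial libraries and at 0.140 CPM or less in AM, while C4b separates IM1 and IM2 from IM3 and AM.

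C1qa (chromosome 4, 136895917 to 136898803, mm10, minus strand) read 2823, 2475 and 2494 CPM in IM1 replicates A, B and C, 2870, 2106 and 2501 CPM in IM2, and 2272, 2076 and 1934 CPM in IM3. In AM it had 1, 0 and 0 counts. No interstitial library came near AM, and the IM1 values lay above those of IM3 but within the range of IM2.

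C1qb (136880129 to 136886187) read 8619, 4663 and 5482 CPM in IM1, 5615, 4223 and 5076 CPM in IM2, and 4864, 4821 and 4311 CPM in IM3, against 2, 0 and 0 counts in AM. IM1 replicate A was the highest library by a wide margin, and the ranges of the interstitial populations overlapped. C1qc (136889804 to 136893065) read 8072, 4277 and 5376 CPM in IM1, 5099, 3654 and 4442 CPM in IM2, and 3972, 3618 and 3531 CPM in IM3, against 0, 0 and 1 count in AM. Here, too, IM1 replicate A was the highest, and every IM1 library lay above every IM3 library.

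With 1 or 2 counts over the 3 AM libraries, the fold against AM is known only loosely. For C1qa the ratio of CPM to AM was 1.09e+05 in IM1 (95% exact binomial interval 1.95e+04 to 4.29e+06), 1.05e+05 in IM2 and 8.83e+04 in IM3. For C1qb it was 1.27e+05 in IM1 (3.52e+04 to 1.05e+06), 1.05e+05 in IM2 and 9.82e+04 in IM3. For C1qc it was 2.41e+05 in IM1 (4.32e+04 to 9.51e+06), 1.85e+05 in IM2 and 1.56e+05 in IM3. The intervals span more than 1 order of magnitude because they rest on the AM counts, and they cover counting error only, since amplified reads without molecular identifiers are not independent molecules. All 3 chains were called higher in each interstitial population than in AM (adjusted p at most 2.32e-13).

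By mean CPM, C1qb ranked 10th in IM1, 13th in IM2 and 14th in IM3 among the genes with a count. C1qc ranked 14th, 17th and 21st in IM1, IM2 and IM3, and C1qa 33rd, 34th and 43rd. The reads of the 3 chains together made up 1.89%, 1.24% and 1.41% of all assigned reads in IM1 replicates A, B and C, 1.4%, 1.05% and 1.22% in IM2, and 1.12%, 1.05% and 1.01% in IM3. Between the sequencing runs of 1 interstitial library (runs of at least 1000000 reads), the CPM of a single chain, without TMM scaling, differed by at most 1.10-fold.

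Between the interstitial populations the C1q chains differed little. C1qc was called higher in IM1 than in IM3, by 0.67 on the log2 scale (SE 0.21, 95% interval 0.24 to 1.11, adjusted p = 0.0265), which was 5908 ± 1953 CPM in IM1 and 3707 ± 233 CPM in IM3 (SD, n = 3 each). The call depended on IM1 replicate A: without that library the difference was 0.38 (adjusted p = 0.0710). It was also lost without any 1 of the 3 IM3 libraries (0.64 to 0.72, adjusted p = 0.0549 to 0.0873) and with only IM1 and IM3 in the fit (adjusted p = 0.0574).

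C1qa and C1qb were not called between IM1 and IM3, with differences of 0.31 (95% interval -0.01 to 0.63) and 0.42 (-0.04 to 0.89). Without IM1 replicate A they were 0.25 and 0.12. C1qb was called higher in IM1 than in IM3 in 2 of 18 alternatives. These were edgeR without the low-count filter (0.42, adjusted p = 0.0132) and without IM1 replicate B (0.60, adjusted p = 0.0365). The intervals of IM2 over IM3 ran from -0.07 to 0.57 for C1qa, -0.37 to 0.55 for C1qb and -0.19 to 0.68 for C1qc. Those of IM1 over IM2 ran from -0.26 to 0.38, from -0.13 to 0.79 and from -0.01 to 0.86 for C1qa, C1qb and C1qc.

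The balance of the chains was compared per kilobase of the deposited gene length, which removes the effect of transcript size on read number. C1qb made up 50.3 ± 2.76% of the C1q reads per kilobase in IM1, 49.5 ± 0.53% in IM2 and 52.2 ± 1.08% in IM3 (SD, n = 3 each). C1qa made up 22.9 ± 4.27% in IM1, 25.9 ± 0.23% in IM2 and 24.5 ± 0.53% in IM3. C1qc made up 26.8 ± 1.68% in IM1, 24.6 ± 0.37% in IM2 and 23.4 ± 0.70% in IM3. On this length, the B chain transcript was about as abundant as the A and C chain transcripts together in every interstitial library, where its share ran from 48.3 to 53.5%.

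IM1 replicate A held 18.3% C1qa, 53.5% C1qb and 28.2% C1qc, the lowest C1qa share and the highest C1qb and C1qc shares of the 9 libraries. Leaving out any 1 library moved the mean C1qb share no further than 50.3 to 51.0%. The shares of all 3 chains depend on the length taken for C1qc, which is 1931 bases over merged exons but 1203 bases for its longest annotated transcript. With longest transcripts the means over 9 libraries were 21.2% C1qa, 44% C1qb and 34.7% C1qc, against 24.4%, 50.7% and 24.9% with merged exons. C1qb was the largest share either way, but with longest transcripts it fell short of C1qa and C1qc together. On merged exons the order of C1qa and C1qc varied. C1qa had the larger share in IM2 (25.9 against 24.6%), IM3 (24.5 against 23.4%) and IM1 replicate B (26.8 against 24.9%). C1qc had the larger share in IM1 replicates A and C. How C1qc compared with C1qa thus also turned on the length.

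**Figure D2:**
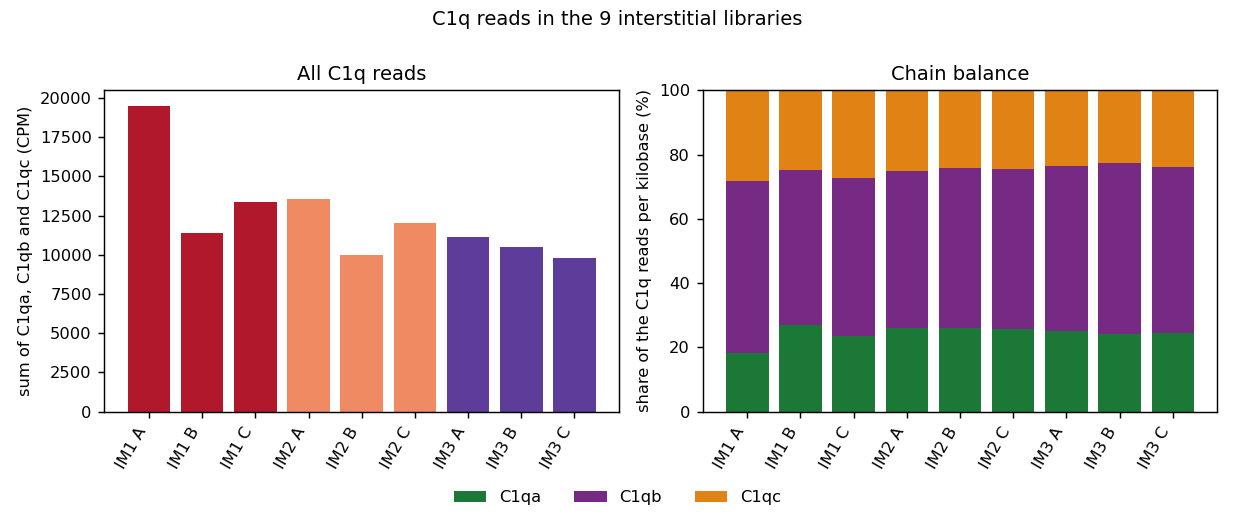
Left, summed CPM of C1qa, C1qb and C1qc in each of the 9 interstitial libraries. Right, the share of each chain in percent of the C1q reads per kilobase of merged exon length. IM1 A has the tallest bar, 19513 CPM, and the smallest C1qa share, 18.3%, while C1qb takes 48.3 to 53.5% in every library.

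The 3 chain genes lie side by side on chromosome 4 within 18675 bases, all on the minus strand, with gaps of 3616 bases between C1qb and C1qc and 2851 bases between C1qc and C1qa. Since these neighbours were read together in the interstitial libraries and hardly at all in AM, the promoters of C1qb and C1qc, the chain genes with an entry, are shown. RefSeq promoters (GRCm38.p6, 250 bases before to 50 after the annotated start) were matched for 5 of the 9 members, C1qb, C1qc, C1ra, C1s1 and C3. Capitals mark the only motif matches found in each: a Maf core, TGCTGA, in C1qb, and the reverse strand of a PU.1 core, GAGGAAG, in C1qc.
C1qb promoter, chr4:136886151-136886450, minus strand: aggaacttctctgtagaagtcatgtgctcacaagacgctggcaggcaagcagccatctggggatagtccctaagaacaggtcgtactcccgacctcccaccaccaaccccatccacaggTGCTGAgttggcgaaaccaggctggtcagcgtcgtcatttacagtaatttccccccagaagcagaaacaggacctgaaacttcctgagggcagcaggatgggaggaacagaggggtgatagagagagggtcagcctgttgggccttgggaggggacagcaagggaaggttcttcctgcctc
C1qc promoter, chr4:136892865-136893164, minus strand: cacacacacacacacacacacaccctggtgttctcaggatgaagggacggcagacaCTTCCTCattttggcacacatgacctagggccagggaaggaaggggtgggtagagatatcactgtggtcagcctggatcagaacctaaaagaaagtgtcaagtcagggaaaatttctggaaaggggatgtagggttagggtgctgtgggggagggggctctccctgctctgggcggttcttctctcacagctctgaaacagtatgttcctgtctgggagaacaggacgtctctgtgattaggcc

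The Maf core of C1qb lies at positions -131 to -126 from the start, and 19.5% of 32851 mouse promoters of this length hold TGCTGA on either strand. The PU.1 core of C1qc lies at positions -194 to -188, and 13.6% of promoters hold GAGGAAG. These positions count from the RefSeq start, which lies inside the C1qc gene model given above. That model ends at 136893065, within the window of 136892865 to 136893164, so the 2 annotations place the start differently. Neither window held the full Maf palindrome (TGCTGA, any base, then TCAGCA; 2 of 32851 promoters), the interferon-type element (GAAA, any 2 bases, then GAAA; 3.44%), CCAAT (37.4%) or TATAAA (13.6%). The same search covered the other matched promoters, those of C3, C1ra and C1s1. C3, the member most abundant in AM, also held the Maf core, on the reverse strand at positions -182 to -177. It held TATAAA at positions 14 to 19 as well, and no match was found in C1ra or C1s1. Each motif was searched on both strands, the Maf core is contained in the palindrome, and a match describes letters, not binding.

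Maf and Spi1, which encode factors of these motif families, were measured in the same libraries. Maf had 3 counts over the AM libraries and averaged 273 ± 48.7 CPM in IM1, 248 ± 44.6 CPM in IM2 and 105 ± 3.53 CPM in IM3 (SD, n = 3 each). Unlike C1qa and C1qb, Maf was called higher in both IM1 (log2 difference 1.37, adjusted p = 1.84e-05) and IM2 (1.23, adjusted p = 9.80e-05) than in IM3. Spi1, which encodes PU.1, was present everywhere and slightly lower in the interstitial mean than in AM (-0.40, SE 0.11, adjusted p = 0.00343).

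C1ra and C1s1 encode the proteases that ride on C1q, and they did not run in parallel with it or with each other. C1ra (chromosome 6, 124512632 to 124523440, plus strand) read 23.5, 23 and 29 CPM in IM1, 28.1, 22.4 and 33.6 CPM in IM2, 8.73, 10.6 and 10.2 CPM in IM3, and 47.7, 49.9 and 46.5 CPM in AM. AM lay above every interstitial library, and IM3 lay below every library of IM1 and IM2. Relative to AM, C1ra was lower by 0.93 in IM1 (log2 fold change -0.93, SE 0.16, adjusted p = 0.000140), lower in IM2 (-0.77, SE 0.16, adjusted p = 0.000645) and lowest in IM3 (-2.28, SE 0.17, adjusted p = 1.39e-08). It was higher in IM1 than in IM3 by 1.35 (SE 0.17, adjusted p = 2.55e-05) and higher in IM2 than in IM3 by 1.51 (SE 0.17, adjusted p = 1.78e-05), and these calls held in all 18 alternatives run for each.

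C1ra has a close copy, C1rb, on the same chromosome, and 36% of the 100-base stretches of C1ra also occur in another gene, almost all in C1rb. Reads that map to several places were not counted, so both genes are undercounted to an unknown extent. C1rb followed the same order at lower levels, with 3.01 ± 0.650 CPM in IM1, 3.05 ± 0.644 CPM in IM2, 0.790 ± 0.343 CPM in IM3 and 4.0 ± 0.532 CPM in AM. C1rl, a C1r-like protease gene, was also highest in AM, at 9.38 ± 1.93 CPM in IM1, 9.97 ± 0.375 CPM in IM2, 5.41 ± 0.462 CPM in IM3 and 32.3 ± 1.67 CPM in AM. Of the 4 copies listed, C1rb and C1rl were lower and C4a higher in the interstitial mean than in AM, and C1s2 was below the filter.

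C1s1 (chromosome 6, 124530345 to 124542359, minus strand, 6901 bases from C1ra) had 24, 50 and 41 counts in IM1, 26, 58 and 54 in IM2, 40, 40 and 57 in IM3, and 0, 1 and 0 in AM. Every interstitial library lay above AM, and the interstitial ranges overlapped. The ratio of CPM to AM was 115 in IM1 (95% exact binomial interval 20.3 to 4.60e+03), 134 in IM2 (23.6 to 5.32e+03) and 132 in IM3 (23.4 to 5.27e+03). Between the interstitial populations the 95% intervals ran from -0.99 to 0.55 for IM1 over IM2, -0.99 to 0.55 for IM1 over IM3 and -0.76 to 0.76 for IM2 over IM3. Of its exon length, 18.4% is overlapped by Gm16567 on the other strand, and counting was unstranded, so reads there were left out as ambiguous.

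C4b, which encodes the protein whose cleavage begins the convertase, gave the sharpest division within the interstitial populations. It read 707, 1182 and 914 CPM in IM1, 1170, 1024 and 1160 CPM in IM2, 18.4, 22.8 and 32.7 CPM in IM3, and 13, 16.1 and 18.3 CPM in AM. Every library of IM1 and IM2 lay far above every library of IM3, and the lowest IM3 library just above the highest AM library. C4b was higher in IM1 than in IM3 by 5.25 on the log2 scale (SE 0.25, adjusted p = 1.60e-09) and higher in IM2 than in IM3 by 5.51 (SE 0.25, adjusted p = 2.49e-09). It ranked 110th in IM1, 80th in IM2, 6058th in IM3 and 7179th in AM among genes with a count.

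Against AM, C4b was higher by 5.89 in IM1 (SE 0.25) and by 6.15 in IM2 (SE 0.26). In IM3 it was higher by 0.64 (SE 0.22, adjusted p = 0.0188), a call that was lost without IM3 replicate C (0.38, adjusted p = 0.146) or without AM replicate A (0.51, adjusted p = 0.0890). IM1 and IM2 did not separate, with a 95% interval of -0.69 to 0.17 for IM1 over IM2. C4b lies on chromosome 17 (34728380 to 34743882, minus strand) and shares 16.5% of its 100-base stretches with C4a, its near copy. C4a had 1.66 to 2.00% as many counts as C4b in IM1 and IM2 and showed the same pattern, at 17.5 ± 3.54 CPM in IM1, 18.7 ± 0.999 CPM in IM2, 0.975 ± 0.489 CPM in IM3 and 0.505 ± 0.330 CPM in AM. How far reads of C4b were assigned to C4a was not tested.

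C2 encodes the other component of the classical convertase and repeated the C4b division at a much lower level. It had 45, 63 and 51 counts in IM1, 46, 32 and 37 in IM2, 5, 5 and 15 in IM3, and 8, 9 and 2 in AM. The libraries of IM1 and IM2 lay above those of IM3 and AM, which overlapped. C2 was higher in IM1 than in IM3 by 2.71 (SE 0.48, adjusted p = 0.000596) and higher in IM2 than in IM3 by 2.21 (SE 0.48, adjusted p = 0.00562). Against AM it was higher by 3.06 in IM1 (SE 0.49, adjusted p = 6.81e-05) and by 2.55 in IM2 (SE 0.50, adjusted p = 0.000380), and in IM3 the difference of 0.34 was not called (95% interval -0.86 to 1.55).

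C2 (chromosome 17, 34862604 to 34898265, minus strand) is overlapped over 46.9% of its exon length, by 1656 bases of Gm20547 on the same strand and 161 bases of Zbtb12 on the other, where reads were ambiguous and not counted. The C2 counts are therefore low estimates in every library. C2 and C4b lie 118721 bases apart.

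**Figure D3:**
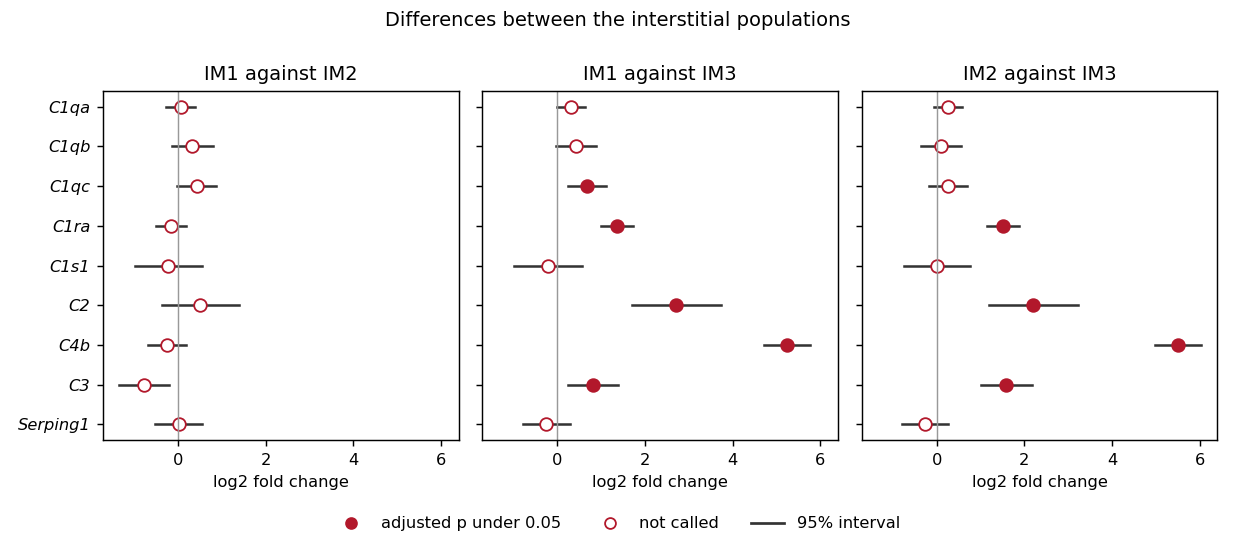
Log2 fold change (horizontal axis) of each of the 9 genes (rows) for IM1 against IM2, IM1 against IM3 and IM2 against IM3, with bars for 95% intervals. Filled points passed an adjusted p of 0.05 and open points did not. C4b stands at 5.25 and 5.51 over IM3, and no point is filled between IM1 and IM2 in this fit, which has no replicate block.

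C3 encodes the central protein on which the complement pathways converge, and it was the member most abundant in AM. It read 85.1, 215 and 136 CPM in IM1, 215, 257 and 272 CPM in IM2, 62.2, 75.8 and 111 CPM in IM3, and 234, 329 and 297 CPM in AM. IM2 and AM overlapped, IM3 lay below both, and IM1 spread from the range of IM3 to that of IM2. Relative to AM, C3 was lower in IM1 (-0.98, SE 0.27, adjusted p = 0.00548) and in IM3 (-1.79, SE 0.28, adjusted p = 4.33e-05), and in IM2 the difference was -0.21 (95% interval -0.77 to 0.36, not called).

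C3 was higher in IM2 than in IM3 by 1.58 (SE 0.27, adjusted p = 0.000935), a call that held in all 18 alternatives. The call of IM1 over IM3, 0.81 (SE 0.27, adjusted p = 0.0394), was fragile: it was lost without IM1 replicate B (0.41, adjusted p = 0.188), under voom with a weight per population (adjusted p = 0.0905) and in 8 other alternatives. Without IM1 replicate A it was 1.08 (adjusted p = 0.00431). For IM1 over IM2 the difference of -0.77 was not called (95% interval -1.34 to -0.20, adjusted p = 0.175), but it was called with the replicate letter as a block (-0.83, adjusted p = 0.0313), without IM1 replicate B (-1.17, adjusted p = 0.00661) and without the low-count filter (-0.77, adjusted p = 0.000155). C3 was lower in IM1 than in the IM2 library of the same letter in all 3 pairs.

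C3 lies on chromosome 17 (57203970 to 57228136, minus strand). It is also known from lung epithelial cells, and the 8 epithelial markers summed to 28.3 to 37.7 CPM in IM1, 22.2 to 64.1 CPM in IM2, 9.66 to 22.3 CPM in IM3 and 146 to 166 CPM in AM (without TMM scaling). In AM that sum was nearly all Cdh1 (84.7 CPM) and Epcam (66.7 CPM), while Sftpb was at 0, Sftpc at 0.322 CPM and Sftpa1 at 0.0871 CPM. A set of 3 erythroid markers moved the same way, at 0.625 to 63.5 CPM in the interstitial libraries and 266 to 329 CPM in AM. Their part in the AM levels of C3 and C1ra was not tested.

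Serping1, which encodes the inhibitor of C1r and C1s, read 20.9, 18.9 and 24.5 CPM in IM1, 20.9, 19.6 and 23.3 CPM in IM2, and 14.7, 33 and 29 CPM in IM3, and had 0 counts in all AM libraries. IM3 held both the lowest and the highest interstitial value, and the 3 populations overlapped. Taking 3 counts over the AM group as the limit that 0 allows, Serping1 was at least 302-fold higher in IM1, at least 300-fold higher in IM2 and at least 356-fold higher in IM3 than in AM. Between the interstitial populations the 95% intervals ran from -0.52 to 0.55 for IM1 over IM2, -0.78 to 0.28 for IM1 over IM3 and -0.80 to 0.26 for IM2 over IM3. The gene lies on chromosome 2 (84765387 to 84775444, minus strand).

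Serping1 and C1s1 are also transcribed by fibroblasts, so 10 fibroblast markers were read beside them. Their sum was 839 to 1620 CPM in IM1, 977 to 1220 CPM in IM2, 1120 to 1490 CPM in IM3 and 1360 to 1490 CPM in AM (without TMM scaling), where AM drew on Fn1 (931 CPM) and Gsn (488 CPM), which macrophages express too. The collagen and proteoglycan genes Col1a1, Col1a2, Col3a1, Dcn and Lum had counts in every interstitial library and were at 0 in AM. Col3a1 read 10.7, 55.3 and 22.5 CPM in IM1, 36.7, 47.9 and 48.2 CPM in IM2, and 25, 36.2 and 42.7 CPM in IM3. Mfap4, which encodes a matrix protein, read 16.2, 19.1 and 13.7 CPM in IM1, 18.8, 26.2 and 21.8 CPM in IM2, and 25.4, 59.5 and 44.3 CPM in IM3, with 1 count in AM. Dcn differed from these in its order, at 8.12, 5.56 and 5.76 CPM in IM1, 9.54, 5.28 and 7.22 CPM in IM2, and 0.999, 0.728 and 1.53 CPM in IM3. The 5 collagen and proteoglycan genes thus moved with Serping1 and C1s1 between the interstitial libraries and AM, while the summed marker level overlapped between them. Their part in those results was not tested.

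**Figure D4:**
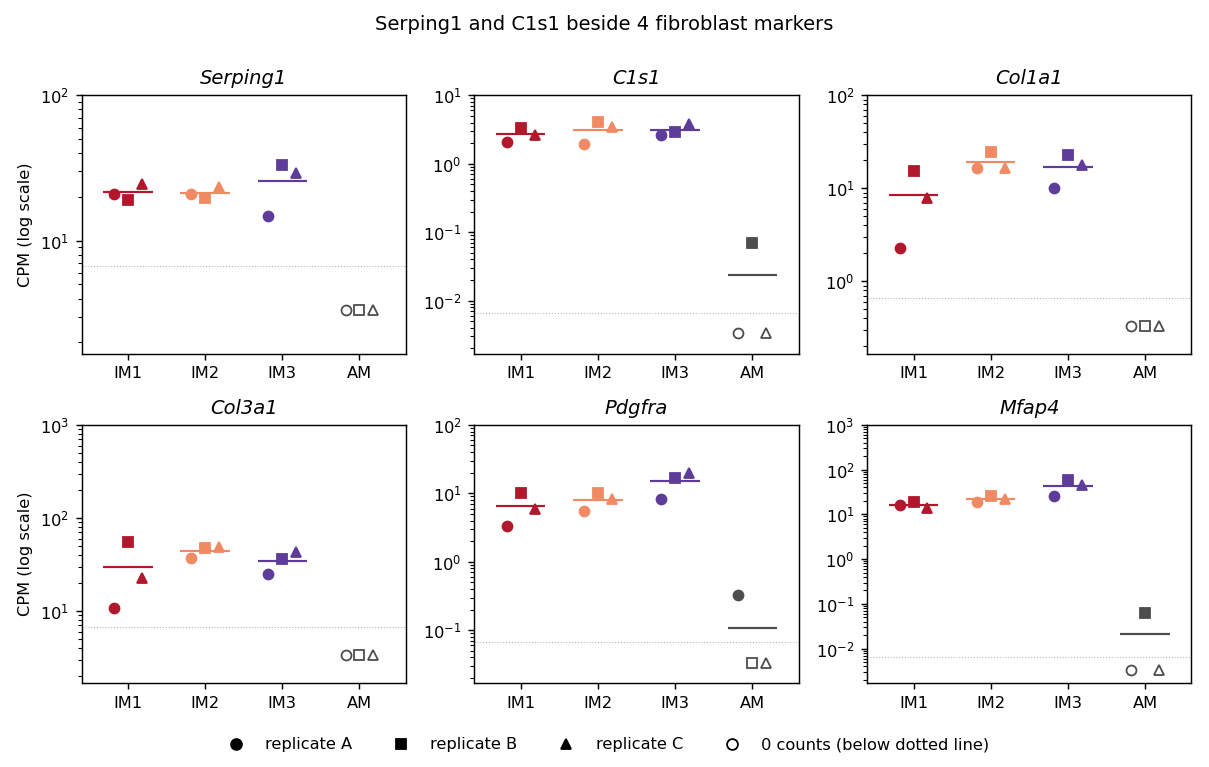
Serping1 and C1s1 (TMM-scaled CPM) beside the fibroblast markers Col1a1, Col3a1, Pdgfra and Mfap4 (CPM without TMM scaling), on log vertical axes, in the 3 libraries of IM1, IM2, IM3 and AM. Filled symbols are single libraries, open symbols below the dotted line are libraries with 0 counts, and bars are group means. In AM no panel shows more than 5 counts in a library, and in every interstitial library all 6 genes were read.

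Per kilobase of merged exon length, so that genes can be set side by side, the order in IM1 was C1qb (5749 ± 1919 CPM per kilobase), C1qc (3060 ± 1011), C1qa (2498 ± 188), C4b (164 ± 41.8), C3 (28.3 ± 12.7), Serping1 (9.23 ± 1.21), C1ra (9.15 ± 1.22), C2 (0.982 ± 0.116) and C1s1 (0.859 ± 0.195; SD, n = 3). Serping1 and C1ra, and C2 and C1s1, were neighbours within their spread. The merged length also holds bases where reads were ambiguous and not counted, 46.9% for C2 and 18.4% for C1s1, so both read too low on this scale. C1ra and C4b, with 36% and 16.5% of their 100-base stretches shared with other genes, can read low too. The order among the lower members is therefore approximate. The proteases thus stood far below the recognition molecule: C1qb exceeded C1ra by more than 2 orders of magnitude on this scale in all 3 interstitial populations. In IM3, C3 (16.1 ± 4.86 CPM per kilobase) and Serping1 (11 ± 4.13) stood above C4b (4.32 ± 1.28), which in IM1 and IM2 came next after the C1q chains. In AM the order was C3 (55.7 ± 9.43), C1ra (17.5 ± 0.619), C4b (2.77 ± 0.462) and C2 (0.115 ± 0.0675), and the other 5 members had at most 2 counts in all.

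Across the 9 interstitial libraries, C4b varied together with C1ra (Pearson r = 0.968), C2 (0.940) and C3 (0.795) on log2 CPM, and C1qb with C1qc (0.963). C1s1, with 24 to 58 counts in these libraries, ran against C1qa (-0.784), C1qb (-0.774) and C1qc (-0.735). Serping1 had no r outside -0.369 to 0.198 with any other member. These 9 points share population, replicate depth and scaling, and they are given as a description. For the C1q chains they also lean on IM1 replicate A, the library that stood apart from its group. The chains summed to 19513 CPM there and to 9776 to 13584 CPM in the other interstitial libraries. Correlations and nearest profiles without that library were not tested. The 10 genes outside the chains whose profile was most like the mean of the C1q chains, among 8531 genes with at least 10 CPM on average, were Timm17b (0.995), Chchd7 (0.988), Snrpb2 (0.985), Samm50, Ddost and Pebp1 (0.983 each), Cln3 and Prdx3 (0.981 each), Ssbp1 (0.98) and Ndufb11 (0.979). None of these 10 had the absence from AM that marks C1q: Timm17b averaged 41.5 CPM in IM1, 30.9 in IM2, 24.8 in IM3 and 44.1 CPM in AM.

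For C4b the nearest profiles were Cp (0.995), Unc5a (0.993), F13a1, Cd38 and Wwp1 (0.992 each). Cp, the ceruloplasmin gene, averaged 283 CPM in IM1, 281 in IM2, 44.4 in IM3 and 0.0712 CPM in AM, and F13a1, the gene of the coagulation factor XIII A chain, averaged 2624 CPM in IM1, 2249 in IM2, 85.8 in IM3 and 0.165 CPM in AM. For C1ra they were Slc28a2 (0.987), Aoah (0.986), Cd40 and Ipo11 (0.985 each) and Ralgds (0.982), and for C2 Adgrl2 (0.975), Lrrc57 (0.969), Fam118a and Fgd6 (0.968 each) and Rab34 (0.966). The nearest profile to C3 was Atp6v0a1 (0.957), and Rubcn (0.949), Castor2 (0.947) and Etv5 (0.946) were also among the nearest. Nearest to C1s1 were Irf2bp2 (0.969), Rbm19, Wdr48, Dnajc10 and Nfrkb, and nearest to Serping1 Cd300ld (0.870), Zfp97, Mxra8, Aatf and Tmem68, the last being the loosest match of all at 0.821.

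The lectin pathway enters the same cascade through mannose-binding lectins or ficolins in place of C1q. Of its 8 listed genes only Fcna, which encodes ficolin A, passed the filter: it read 414, 171 and 209 CPM in IM1, 188, 81.9 and 121 CPM in IM2, 3.90, 7.33 and 5.61 CPM in IM3, and 0.560, 0.281 and 0.442 CPM in AM. The populations were ordered as for C4b, with IM1 and IM2 overlapping and both above IM3, and IM3 above AM. Fcna was higher in IM1 than in IM3 by 5.56 (SE 0.39, adjusted p = 6.60e-08) and higher in IM2 than in IM3 by 4.54 (SE 0.38, adjusted p = 8.59e-07). Mbl1, Mbl2, Fcnb and Colec10 had 0 counts in all 12 libraries, Masp1 had 28 counts in IM3, 6 in IM2 and 0 in IM1 and AM, and Masp2 had 7 counts in the interstitial libraries and 2 in AM.

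In the alternative pathway, Cfp, which encodes the stabiliser properdin, was higher in IM1 and in IM2 than in IM3, by 3.03 (SE 0.20, adjusted p = 3.34e-08) and 2.91 (SE 0.20, adjusted p = 1.40e-07) on the log2 scale. It averaged 1191 ± 318 CPM in IM1, 1099 ± 237 CPM in IM2, 146 ± 15.4 CPM in IM3 and 324 ± 25.5 CPM in AM. Cfp was higher than in AM in IM1 (1.88, adjusted p = 4.00e-07) and IM2 (1.76, adjusted p = 7.77e-07) and lower in IM3 (-1.15, adjusted p = 7.01e-05). Cfb, the factor B gene, had 16 counts over the 9 interstitial libraries and 51 over the 3 AM libraries. Cfd, the factor D gene, had 44 interstitial counts, Hc, the C5 gene, had 32, and both had 0 in AM.

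**Figure D5:**
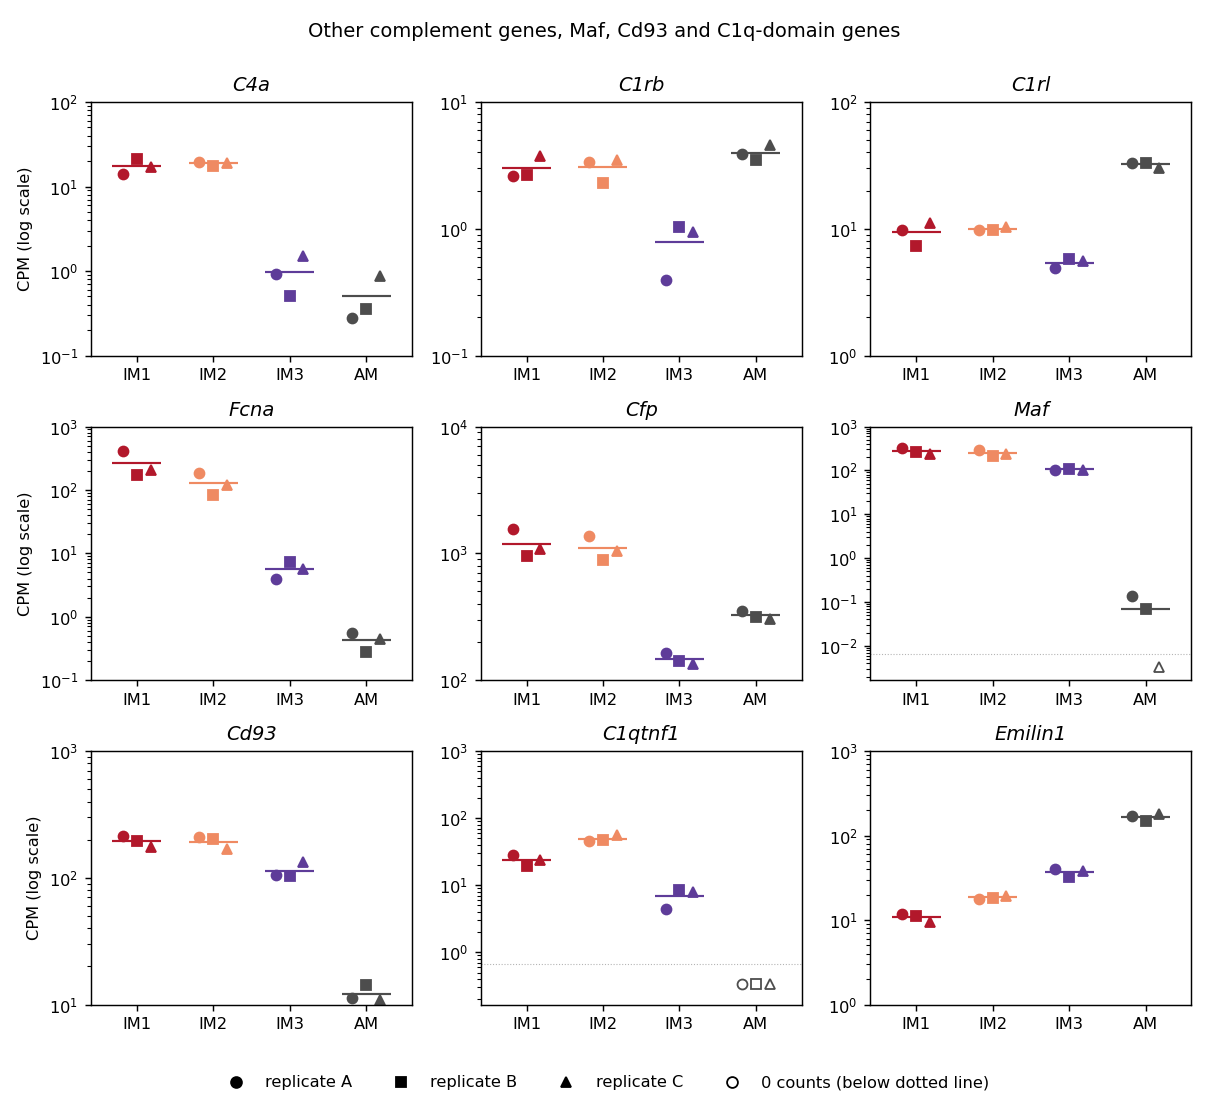
CPM (vertical axis, log scale, a different range in each panel) of C4a, C1rb, C1rl, Fcna, Cfp, Maf, Cd93, C1qtnf1 and Emilin1 in the 3 libraries of IM1, IM2, IM3 and AM. Filled symbols are single libraries, open symbols below the dotted line are libraries with 0 counts, and bars are group means. C4a and Fcna separate IM1 and IM2 from IM3, Maf and C1qtnf1 are almost or wholly without counts in AM, and Emilin1 stands highest in AM.

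Of 7 genes listed as possible binding partners or receptors of C1q, 6 passed the filter. In the interstitial mean against AM 2 were higher, 3 lower and 1 not called (median -0.13, beside 0.10 over all genes). Of all genes tested, 64.6% were called in that comparison. Cd93, a lectin-like surface receptor, was 3.74 higher (SE 0.15, adjusted p = 6.01e-12), at 196 ± 20 CPM in IM1, 193 ± 21.5 CPM in IM2, 114 ± 16 CPM in IM3 and 12.2 ± 1.93 CPM in AM. Scarf1, a scavenger receptor gene, was 1.34 higher (SE 0.22, adjusted p = 5.62e-05), and both genes were also higher in IM1 and in IM2 than in IM3. Calr, the calreticulin gene, was lower (-1.06, SE 0.09, adjusted p = 2.41e-08), as were Lrp1 (-0.52) and C1qbp (-0.49), and Cr1l was not called (0.22).

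Of 23 other genes with a C1q-type domain, 9 passed the filter, and 6 were higher, 1 lower and 2 not called in the interstitial mean against AM. In that comparison 64.6% of all genes tested were called, 35.9% higher and 28.7% lower. C1qtnf1, C1qtnf2, C1qtnf3 and C1qtnf7 had 0 counts in AM, and Mmrn2 had 3. These genes passed the filter only through the interstitial libraries, so they could not be called lower. C1qtnf1, which encodes a secreted C1q-like protein, had 0 counts in AM and read 28.6, 19.4 and 23.6 CPM in IM1, 45.3, 47.7 and 56.3 CPM in IM2, and 4.43, 8.50 and 7.84 CPM in IM3. The 3 interstitial populations did not overlap, and IM2 was the highest: C1qtnf1 was lower in IM1 than in IM2 (-1.06, SE 0.22, adjusted p = 0.0271) and higher in IM2 than in IM3 (2.85, SE 0.24, adjusted p = 2.69e-06). Against AM it was at least 330-fold higher in IM1, at least 703-fold higher in IM2 and at least 96.4-fold higher in IM3. Emilin1, an extracellular matrix glycoprotein gene, went the other way, at 10.8 ± 1.13 CPM in IM1, 18.6 ± 0.70 CPM in IM2, 36.7 ± 3.57 CPM in IM3 and 167 ± 16.9 CPM in AM, and was lower in IM1 than in IM2 (-0.79, adjusted p = 0.00738) and lower in IM2 than in IM3 (-0.98, adjusted p = 0.000105).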

How the data were processed

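RNA from about 50000 sorted cells per sample was amplified with SMART-Seq v4 and sequenced on Ion Proton, per the labels' protocols. The deposited values are raw read counts per gene, made by the authors with featureCounts without strand on Ensembl 78 gene models, per the file headers; reads mapping to several places or overlapping several genes were not counted. STAR 2.5.1b, Subread 1.5.0-p1, DESeq2 1.8.1, R 3.2.0 and the mm10 build are named in the submitters' processing notes. The 38 deposited runs were summed to 12 libraries (3 runs each, 5 for IM2 replicate A), and the deposited table per library held the same counts, with 0 cells differing. Symbols came from GENCODE M21, which named 42462 of 43346 identifiers (98.0%). Merged exon lengths are those in the deposited table.

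Counts were tested with edgeR 4.0.16 under R 4.3.3: TMM scaling, filterByExpr by population (minimum count 10), robust quasi-likelihood F test, population as the only term, all 12 libraries in 1 fit with 8 residual degrees of freedom, and Benjamini-Hochberg adjustment over the 14095 genes of each comparison. Genes with an adjusted p below 0.05 were called. Fold changes are log2 with SE and 95% intervals from that fit, and the procedure was tested on simulated counts. Where AM had 0 counts, the folds took 3 counts over the 3 AM libraries together as the limit. In a single library 3 counts would be 0.190 to 0.254 CPM without TMM scaling. The 9 members were named throughout; the other complement, C1q-domain, partner and factor lists are given as counts, and like profiles are the nearest by Pearson r over the 9 interstitial libraries. The members and lists were chosen with earlier results of these data known. Alternatives were upper-quartile scaling, DESeq2 1.42.0, no filter, a replicate block, limma 3.58.1 voom with a weight per population, only the populations compared, and each library left out in turn. The labels do not say what the replicate letters share. Deviations from the group means correlated between libraries of the same letter by 0.166 to 0.292 for IM1 with IM2 and 0.143 to 0.189 for IM2 with IM3, over 0.1 in all 3 pairs of each, so the letters pair those populations by the data. They ran from -0.122 to 0.165 for IM1 with IM3, and no pair with AM was over 0.1; in all, 7 of 18 pairs of the same letter and 3 of 36 of different letters were over 0.1. Outlying libraries were not tested for, since each group had 3. Some genes of the lists and profiles are not reported here.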

Additional observations from a re-analysis of the deposited data

How the results depend on the processing

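The calls of C1ra, C2 and C4b between IM3 and the other interstitial populations held in every alternative run. Those of C1qa, C1qb, C1qc, C1s1 and Serping1 against AM did so too. With 0 to 2 AM counts these genes could not be called lower than in AM, so their direction was not put to a test. The number of members called was 0 for IM1 against IM2 in the main analysis, 2 without the low-count filter and 0 to 2 when 1 library was left out; the members were C1qc and C3. For IM1 against IM3 it was 5, but 3 with only those populations in the fit and 3 to 5 when 1 library was left out. C1qb, not called there in the main analysis, was called without the low-count filter and without IM1 replicate B. All genes called between IM1 and IM2 numbered 241 in the main analysis, 591 with DESeq2, 941 without the filter, 100 with voom, 71 with only those populations and 110 to 1904 when 1 library was left out, the highest being without IM1 replicate B. Between IM1 and IM3 they numbered 3445, and 2268 with only those populations. The C1q chain shares of 24.4% C1qa, 50.7% C1qb and 24.9% C1qc became 19.8%, 42.9% and 37.4% with counts not divided by length, and 21.2%, 44% and 34.7% with the longest transcripts, an alternative chosen after seeing the data. When 1 library was left out, small uncalled differences changed sign (values under 0.005 were taken to have none): C2 in IM3 against AM ran from -0.36 without IM3 replicate C to 0.66, and was -0.06 without AM replicate C, Serping1 in IM1 against IM2 ran from -0.10 to 0.09, and C1qa in IM1 against IM2 from -0.05 to 0.16. The cause of these shifts was not tested. For the interstitial mean against AM, a fit of only the populations compared is the main fit, so it was not run apart. At 0 to 2 AM counts, depth limits the size of the C1q, C1s1 and Serping1 differences, not their direction.

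With the letter as a replicate block, 392 genes and 1 member, C3 (-0.83, adjusted p = 0.0313), were called between IM1 and IM2, and no other call of a member changed in any comparison.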
